A study of Mus musculus with 10 samples.

Results

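The comparison asks what DRIL18 mRNA added to IL12 mRNA changed in mouse T cells. It sets the group electroporated with both mRNAs, called mixture here, against the group electroporated with IL12 mRNA, with 2 libraries in each, and so uses 4 of the 10 libraries of the series. These libraries were chosen by their labels and not by any measured value. Where an effect of DRIL18 without IL12 is needed, the 2 libraries of cells given DRIL18 mRNA are set against the 2 of electroporated controls, called Mock. All groups are spleen cells of pmel-1 mice, whose CD8 T cells carry a transgenic receptor for the melanoma antigen gp100. The cells were first stimulated with human gp100 for 48 h, then grown in human IL-2 for 48 h, and RNA was taken 24 h after electroporation. The labels do not say which mRNA the Mock cells received, nor the age and sex of the mice. The labels call the libraries biological replicates without saying that they came from separate animals, so every p-value measures only the spread between these samples.

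IL-18 is a cytokine of the IL-1 family. It binds IL18R1 and IL18RAP, which signal through MYD88 and the IRAK kinases to NF-kB, and a secreted decoy, IL-18 binding protein, normally blocks it. DRIL18 is a variant that escapes this decoy. IL-12 acts through IL12RB1, IL12RB2, JAK2, TYK2 and STAT4, and the pair of cytokines is known as a strong inducer of interferon gamma (IFN-γ) in T cells.

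The 10 libraries held 31281944 to 35062545 counts and detected 20326 to 21358 genes. The mixture libraries held 35062545 and 34433309 counts and the IL12 libraries 32076695 and 33037713. Levels are given as CPM, counts scaled to a common library size, and genes were called changed at an adjusted p under 0.05 in a quasi-likelihood test across 15777 genes. CD8 T cell genes were high in the 4 libraries: Cd8a had 797 and 777 CPM with the mixture and 763 and 739 CPM with IL12. Cd8b1, the other CD8 chain, was lower in the mixture, with 466.5 and 468 CPM against 540.6 and 520.1 CPM. The T cell genes Cd3e (264.9 and 283.5 against 366.4 and 356.4 CPM) and Trac (236.2 and 247.9 against 290.5 and 270.1 CPM) were lower too. Cd4, which marks helper cells, had 4.93 and 5.57 CPM with the mixture and 4.25 and 3.81 CPM with IL12. Reads assigned to Il18 were at 403 and 361 CPM in the mixture libraries, against 1.83 and 1.73 CPM in the IL12 libraries (log2 fold change 7.74 ± 0.08 SE, adjusted p = 2.77e-34), and DRIL18 cells without IL12 were at 412 and 401 CPM. Counts do not tell the delivered mRNA from the cells' own Il18. Il12a had 10 counts over both mixture libraries and 3 over both IL12 libraries, and Il12b had 0 in each group. The counts thus do not show the IL12 mRNA in either group, nor whether both groups received like amounts of it.

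Adding DRIL18 to IL12 changed 8232 of the 15777 genes tested (52.2%), of which 4075 were higher (25.8%) and 4157 lower (26.3%) in the mixture. The median size of a change was 0.47 on the log2 scale. A change of at least 2-fold was found for 877 higher genes (5.56%) and 939 lower genes (5.95%), the background for counts at 2-fold. For mixture against IL12, list counts below rest on adjusted p alone unless a fold is named. Their background is 25.8% higher and 26.3% lower. Of the 726 list genes tested, 564 changed, a larger share than the 52.2% of all tested genes. A list can thus lie above the background without standing out from the other lists. The median log2 fold change over all tested genes was -0.01. Gene lists were read against these shares: cytokines, endoplasmic reticulum (ER) chaperones, amino acid genes and NF-kB feedback genes lay mostly above 0, while inhibitory receptors, quiescence genes, homing receptors and interferon-stimulated genes lay mostly below it. The column names of both mixture libraries and of IL12 replicate 2 carry a mark, bis, whose meaning is not given. Without IL12 replicate 1, so that every library compared carries it, 7746 genes changed, 7289 of them among the 8232. In bulk RNA, fewer cells of a type and less RNA per cell cannot be told apart.

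**Figure D1:**
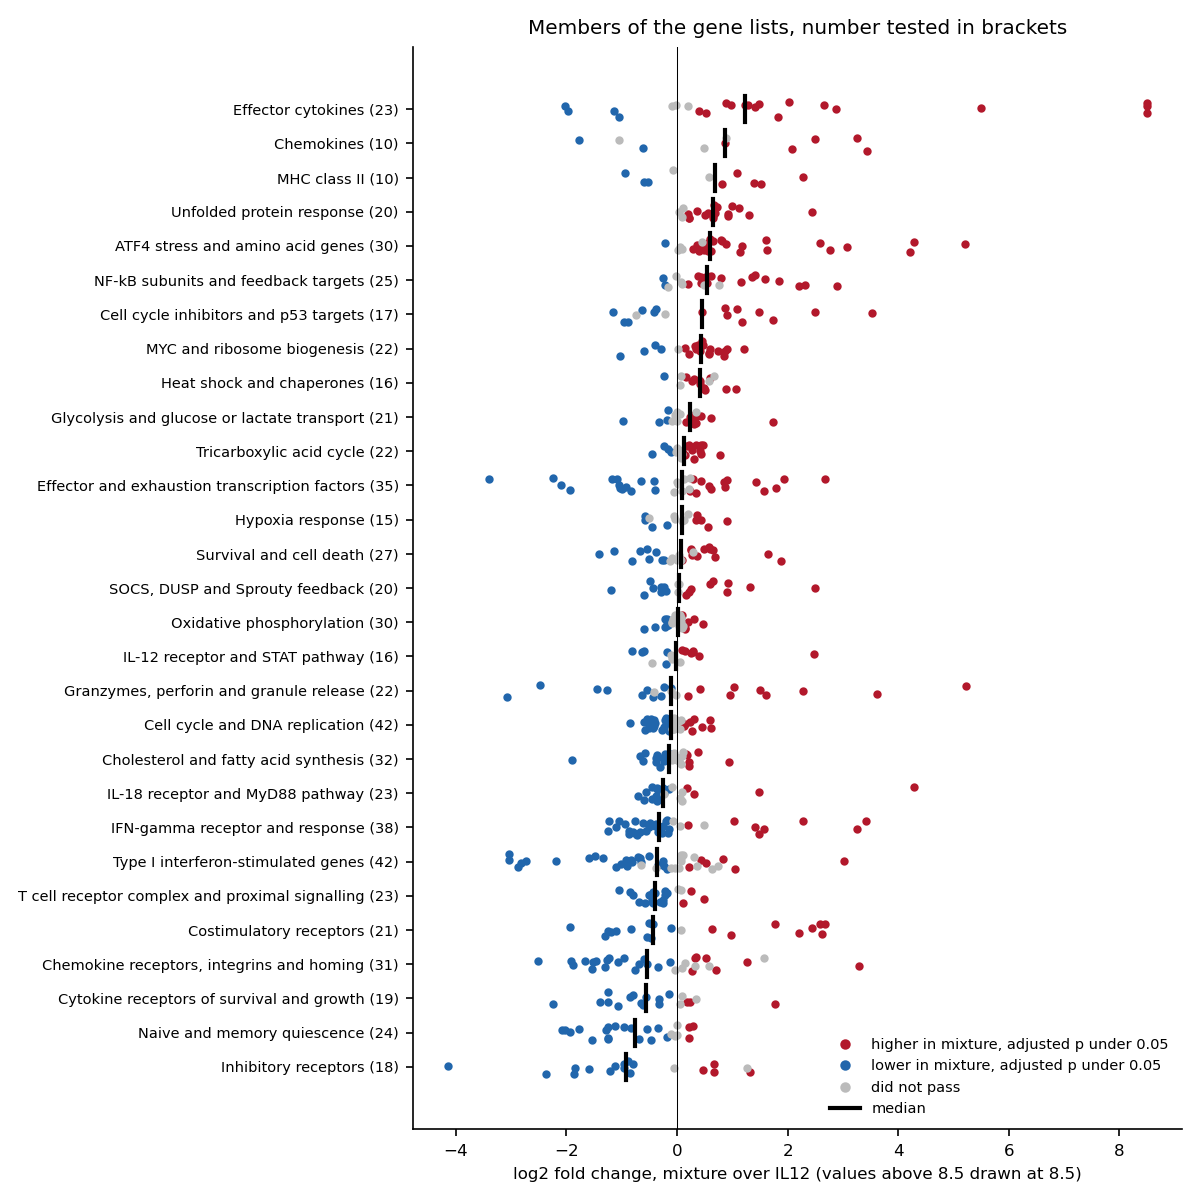
Each point is the log2 fold change of mixture over IL12 (x axis) for a tested member of a gene list (y axis, lists sorted by their median), red where higher and blue where lower at adjusted p under 0.05, grey where not, with the list's median as a black bar. Among the pathway lists drawn, which leave out markers of other cell types, effector cytokines have the highest median at 1.23 and inhibitory receptors the lowest at -0.91. The inhibitory receptor list also holds ectoenzyme genes such as Nt5e. Values above 8.5 are drawn at 8.5.

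Both chains of the receptor that DRIL18 binds were lower in the mixture. Il18r1 had 548 and 554 CPM in the mixture libraries, against 814 and 841 CPM in the IL12 libraries (log2 fold change -0.59 ± 0.04 SE, adjusted p = 5.95e-14), and Il18rap, its partner chain, had 316 and 307 CPM in the mixture libraries, against 419 and 429 CPM in the IL12 libraries (-0.45 ± 0.04, adjusted p = 5.56e-10). Both chains were also lower with DRIL18 alone: Il18r1 had 39.0 and 40.7 CPM with DRIL18 and 73.6 and 72.0 CPM in Mock, well below both groups that received IL12. Of 23 tested genes of the IL-18 receptor and MyD88 pathway, 4 were higher and 14 lower in the mixture, with a median of -0.26. Those lower included Myd88, the adaptor (-0.45 ± 0.05), Irak4, the kinase it recruits (-0.56 ± 0.06), and Ikbkb, a kinase that releases NF-kB (-0.71 ± 0.04). The largest increase was that of Irak3, an IRAK family member that dampens this pathway, at 10.5 and 11.6 CPM with the mixture and 0.523 and 0.598 CPM with IL12 (log2 fold change 4.29 ± 0.21 SE, adjusted p = 1.94e-17). Tnip1, which helps switch NF-kB off, had 236 and 253 CPM with the mixture and 90.4 and 84.5 CPM with IL12 (1.49 ± 0.04, adjusted p = 5.44e-23).

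Genes that NF-kB itself switches on mostly rose. Of 25 tested NF-kB subunits and feedback targets, 17 were higher and 2 lower, with a median of 0.54. Nfkbia, which encodes the inhibitor IkB-alpha and is a standard readout of NF-kB activity, had 227 and 221 CPM in the mixture libraries, against 47.4 and 42.8 CPM in the IL12 libraries (log2 fold change 2.31 ± 0.05 SE, adjusted p = 5.32e-26). Both mixture libraries lay far above the IL12 libraries, and DRIL18 without IL12 gave a smaller increase, with 110.4 and 116 CPM with DRIL18 and 44.5 and 43.0 CPM in Mock (difference of the DRIL18 effects 0.95 ± 0.07 SE, adjusted p = 5.89e-12). Cd83, an activation marker, had 11.9 and 10.2 CPM with the mixture and 1.47 and 1.48 CPM with IL12 (2.90 ± 0.18). Zc3h12a, an RNase that degrades cytokine mRNAs, had 118 and 123 CPM with the mixture and 25.6 and 26.8 CPM with IL12 (2.20 ± 0.06). Nfkbiz, an atypical IkB protein, rose by 1.85 ± 0.06 on the log2 scale. Nfkb2 and Relb, the subunits of the alternative pathway, rose by 1.59 ± 0.04 and 1.41 ± 0.07, and Rel by 0.79 ± 0.06. Rela, the main activating subunit, did not pass the test (0.07 ± 0.04, adjusted p = 0.132), although it passed without library scaling (0.10, adjusted p = 0.0297).

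The promoters of Nfkbia and Nfkb2, and that of the cytokine gene Il6, which is not on this list, were chosen because they hold a kappaB motif and are shown from RefSeq on GRCm38.p6. The motif searched was GGGA, any 2 bases and TTCC, on both strands within 250 bases before the start, and capitals mark it. Nfkbia lies at chr12:55492648-55492701, minus strand, Nfkb2 at chr19:46305445-46305493, plus strand and Il6 at chr5:30013045-30013104, plus strand.
Nfkbia: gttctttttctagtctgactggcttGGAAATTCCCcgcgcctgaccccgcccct
Nfkb2: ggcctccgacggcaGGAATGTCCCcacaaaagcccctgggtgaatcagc
Il6: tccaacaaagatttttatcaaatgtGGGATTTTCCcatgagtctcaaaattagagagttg
The motif stood in 3 of 21 matched list members, against 1.46% of 10365 matched tested genes. It stood in 2.76% of the matched genes at least 2-fold higher and in 1.98% of those at least 2-fold lower. A match describes the letters only and is not a measured binding site.

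Genes of the IL-12 side moved in both directions. Of 16 tested genes of the IL-12 receptor and STAT pathway, 7 were higher and 5 lower. Il12rb1, the shared receptor chain, had 143 and 142 CPM in the mixture libraries, against 164 and 162 CPM in the IL12 libraries (-0.20 ± 0.04, adjusted p = 6.54e-05). Il12rb2, the signalling chain, had 254 and 255 against 264 and 275 CPM and did not pass (-0.09 ± 0.04, adjusted p = 0.0754), but it passed lower without IL12 replicate 1 (-0.12, adjusted p = 0.0343). Stat4 fell by 0.19 on the log2 scale and Jak1 by 0.80, while Tyk2 rose by 0.39 ± 0.04. Gadd45b, a stress protein that activates p38 in T cells, had the largest change, with 56.3 and 59.7 CPM with the mixture and 10.9 and 9.97 CPM with IL12 (log2 fold change 2.48 ± 0.08 SE, adjusted p = 1.26e-21). Mapk14, the gene of p38-alpha, was lower (-0.63 ± 0.05). Feedback inhibitors of cytokine and kinase signalling had 9 higher and 8 lower of 20 tested, with Spred1 at 21.8 and 23.5 against 9.38 and 8.78 CPM (1.32 ± 0.10) and Dusp16 at 27.6 and 26.7 against 14.2 and 14.4 CPM (0.93 ± 0.10). Spry1, an inhibitor of receptor kinase signalling, fell with 3.71 and 3.59 CPM with the mixture and 8.79 and 7.99 CPM with IL12 (-1.20 ± 0.16). Its relative Spry4 rose with 0.526 and 0.593 CPM with the mixture and 0.131 and 0.0629 CPM with IL12 (2.49 ± 0.75), but did not pass without IL12 replicate 2 (2.06, adjusted p = 0.0911) or mixture replicate 2 (2.40, adjusted p = 0.0522).

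Cytokine genes were among the largest increases. Ifng, the gene of IFN-γ, had 8882 and 9109 CPM in the mixture libraries, against 209.8 and 189 CPM in the IL12 libraries, or 45.1-fold more (log2 fold change 5.50 ± 0.05 SE, adjusted p = 5.54e-36). It took 0.868% and 0.892% of all counts in the mixture libraries, against 0.0200% and 0.0182% in the IL12 libraries. Without IL12, Ifng had 17.5 and 17.2 CPM with DRIL18 and 0.906 and 1.43 CPM in Mock, so the effect of DRIL18 was larger in the presence of IL12 (difference 1.60 ± 0.19 SE, adjusted p = 3.57e-08).

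Several cytokines that were silent with IL12 alone were read in the mixture. Il22, an IL-10 family cytokine that acts on epithelia, had 31.2 and 35.2 CPM with the mixture and 0 and 0 CPM with IL12, at least 691-fold higher when 3 counts are set in place of the 0 over both IL12 libraries. It was also at 0 in DRIL18 and Mock cells. Il6 had 23.6 and 22.5 CPM with the mixture and 0 and 0 CPM with IL12 (at least 479.8-fold higher). Il13, a type 2 cytokine, had 13.4 and 17.4 CPM with the mixture and 0 and 0 CPM with IL12 (at least 319.8-fold higher), and 1.67 and 1.44 CPM with DRIL18. The adjusted p-values of these 3 genes were 2.19e-21, 1.5e-19 and 2.11e-18. Their difference between the DRIL18 effects could not be estimated in the count model, because the IL12 and Mock libraries are at 0.

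Of 23 tested effector cytokines, 16 were higher and 4 lower in the mixture, with a median of 1.23. Il24, another IL-10 family member, had 28.2 and 29.7 CPM with the mixture and 4.90 and 2.96 CPM with IL12 (2.88 ± 0.20). Csf2, the gene of GM-CSF, had 29.8 and 31.5 CPM in the mixture libraries, against 4.998 and 4.66 CPM in the IL12 libraries (log2 fold change 2.67 ± 0.13 SE, adjusted p = 1.4e-17). These libraries do not overlap, nor do those of Lta, the gene of lymphotoxin-alpha, although its IL12 libraries differ from each other at 35.4 and 22.5 CPM (1.23 ± 0.11 for the mixture, at 65.8 and 69.5 CPM). Tnf rose less, with 45.3 and 41.9 CPM with the mixture and 34.1 and 32.2 CPM with IL12 (0.40 ± 0.07, adjusted p = 8.19e-06), and Tnfsf14, which encodes the costimulatory ligand LIGHT, had 8.26 and 8.12 CPM with the mixture and 2.55 and 2.08 CPM with IL12 (1.83 ± 0.17).

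The 4 cytokine genes that fell were Csf1, Tnfsf10, Fasl and Il10. Csf1, the macrophage growth factor, had 2.19 and 1.63 CPM with the mixture and 7.55 and 7.96 CPM with IL12 (-2.02 ± 0.23). The death ligand genes Tnfsf10 (TRAIL) and Fasl had 10.9 and 12.6 against 45.4 and 46.5 CPM (-1.96 ± 0.07) and 30.8 and 30.7 against 67.4 and 67.4 CPM (-1.13 ± 0.06). Il10, which restrains inflammation, had 45.05 and 42.8 CPM in the mixture libraries, against 92.9 and 89.4 CPM in the IL12 libraries (log2 fold change -1.05 ± 0.07 SE, adjusted p = 1.74e-14), and both groups lay above the 1.82 and 1.62 CPM of DRIL18 cells.

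Of 10 tested chemokines, 5 rose and 2 fell. Cxcl10, which draws CXCR3-bearing T cells, had 35.9 and 32.9 CPM in the mixture libraries, against 4.64 and 2.58 CPM in the IL12 libraries (log2 fold change 3.26 ± 0.14 SE, adjusted p = 1.03e-18). Ccl3, which draws inflammatory cells, had 3.09 and 4.48 CPM with the mixture and 0.817 and 0.975 CPM with IL12 (2.07 ± 0.30). Xcl1, which attracts cross-presenting dendritic cells, fell, with 1.08 and 1.27 CPM with the mixture and 4.12 and 3.93 CPM with IL12 (-1.77 ± 0.24). Cxcl11 and Ccl22 passed as higher at a low level in the mixture (3.44 ± 0.78 and 2.50 ± 0.56). Without IL12 replicate 1, 1 chemokine passed as lower.

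**Figure D2:**
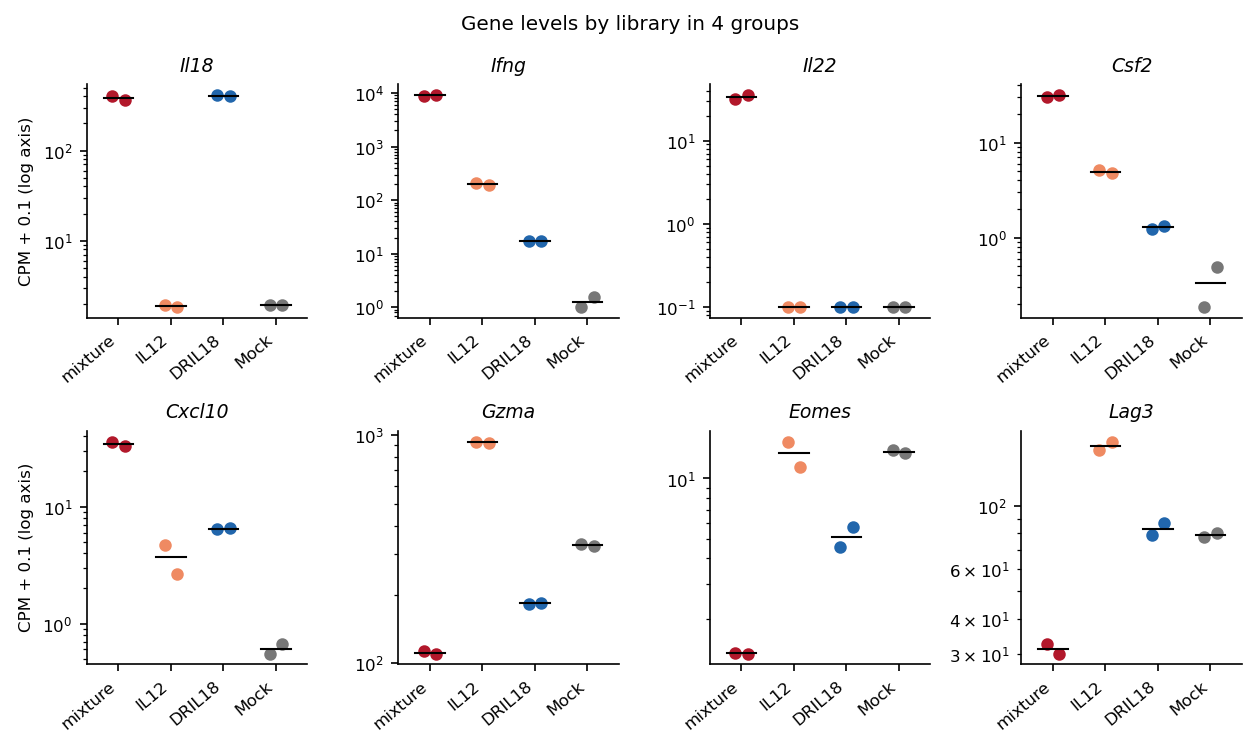
Levels of 8 genes in each library of the mixture, IL12, DRIL18 and Mock groups (x axis), as CPM plus 0.1 on a log axis, with points for libraries and a bar for the mean of each pair. Il18 is high in both groups that received DRIL18, Il22 is at 0 in the other 3 groups, and Gzma, Eomes and Lag3 are lowest in the mixture.

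Most genes known to respond to IFN-γ moved against the level of Ifng itself, but the larger changes were more often increases. Of 38 tested genes of the IFN-γ receptor and response, 8 were higher and 27 lower in the mixture than in IL12 cells, with a median of -0.33. By at least 2-fold, 7 were higher and 4 lower, against 5.56% and 5.95% of all tested genes. Without IL12 the same list went the other way, with 32 higher and 1 lower in DRIL18 than in Mock cells (12.2% and 12.1% of all tested genes) and a median of 0.68. The effects with and without IL12 differed past their own test for 32 members, 31 of them lower with IL12 present, against 31.6% of all tested genes in either direction, and 23 members were called in opposite directions (1.88% of all tested genes).

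Gbp2, a guanylate-binding protein, had 907 and 860.0 CPM in the mixture libraries, against 2121 and 2082 CPM in the IL12 libraries (log2 fold change -1.25 ± 0.04 SE, adjusted p = 3.04e-23), with 717 and 746 CPM with DRIL18 and 218 and 219.7 CPM in Mock. Gbp2 was thus lower in the mixture than with IL12 and higher with DRIL18 than in Mock (difference -2.99 ± 0.05 SE, adjusted p = 1.04e-27). Iigp1 and Igtp, immunity-related GTPases that attack vacuoles of intracellular parasites, moved the same ways. Iigp1 had 83.8 and 78.2 CPM with the mixture and 188 and 192 CPM with IL12, with 336 and 328 CPM with DRIL18 and 118 and 119 CPM in Mock (difference -2.72 ± 0.06 SE, adjusted p = 1.42e-25). Igtp had 395 and 383 CPM with the mixture and 747 and 745 CPM with IL12, with 743 and 739 CPM with DRIL18 and 406 and 400.4 CPM in Mock (difference -1.82 ± 0.05 SE, adjusted p = 5.55e-23). For both genes the mixture libraries lay below the Mock libraries.

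Irf1, an interferon-induced transcription factor, had 162 and 149 CPM with the mixture and 186 and 184 CPM with IL12 (-0.25 ± 0.04, adjusted p = 3.63e-06), and Irf8 had 191 and 188 CPM with the mixture and 236 and 245 CPM with IL12 (-0.34 ± 0.04). Ifngr1, the ligand-binding receptor chain, had 161 and 151 CPM in the mixture libraries, against 285 and 284 CPM in the IL12 libraries (log2 fold change -0.87 ± 0.04 SE, adjusted p = 2.86e-18), with 268 and 282 CPM with DRIL18 and 296 and 305 CPM in Mock, so the mixture was the lowest of the 4 groups. Ifngr2, the second chain, was higher in the mixture at 3.68 and 4.54 against 1.44 and 1.32 CPM (1.57 ± 0.18), and lower in both groups with IL12 than the 13.4 and 12.8 CPM of DRIL18 and 14.0 and 14.1 CPM of Mock.

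The 8 members that rose included Upp1, uridine phosphorylase, at 13.1 and 11.6 against 0.980 and 1.32 CPM (3.42 ± 0.23), Cxcl10, and Serpina3f, a protease inhibitor, at 9.58 and 7.92 against 1.73 and 1.89 CPM (2.27 ± 0.15). Cd274, the gene of the checkpoint ligand PD-L1, had 53.1 and 52.0 CPM with the mixture and 25.8 and 25.5 CPM with IL12 (1.03 ± 0.07, adjusted p = 2.8e-14). Several class II antigen presentation genes also rose. Ciita, their master regulator, had 2.48 and 3.44 CPM with the mixture and 1.08 and 1.04 CPM with IL12 (1.48 ± 0.26), and of 10 tested MHC class II genes 5 were higher and 3 lower. Cd74, the invariant chain, had 92.0 and 87.0 CPM in the mixture libraries, against 19.0 and 17.8 CPM in the IL12 libraries (log2 fold change 2.28 ± 0.06 SE, adjusted p = 1.16e-23), with 79.9 and 80.3 CPM with DRIL18 and 16.6 and 15.9 CPM in Mock. H2-Eb1, H2-Aa and H2-Ab1 rose by 1.53 ± 0.12, 1.39 ± 0.11 and 1.09 ± 0.09 on the log2 scale. B cells also make these class II genes, and of 18 B cell markers 11 were higher and 0 lower in the mixture. Without IL12 replicate 2 or mixture replicate 2, 7 B cell markers were higher. The summed level of these markers was 597 to 609 CPM with the mixture, 467 to 501 CPM with IL12, 942 to 993 CPM with DRIL18 and 713 to 716 CPM in Mock. Ighm, the immunoglobulin heavy chain gene, held most of that sum. The other 17 markers summed to 77.5 and 83.1 CPM with the mixture, 47.5 and 46.0 CPM with IL12, 67.1 and 71.3 CPM with DRIL18 and 56.2 and 56.7 CPM in Mock. The part of B cells in the class II result was not tested.

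**Figure D3:**
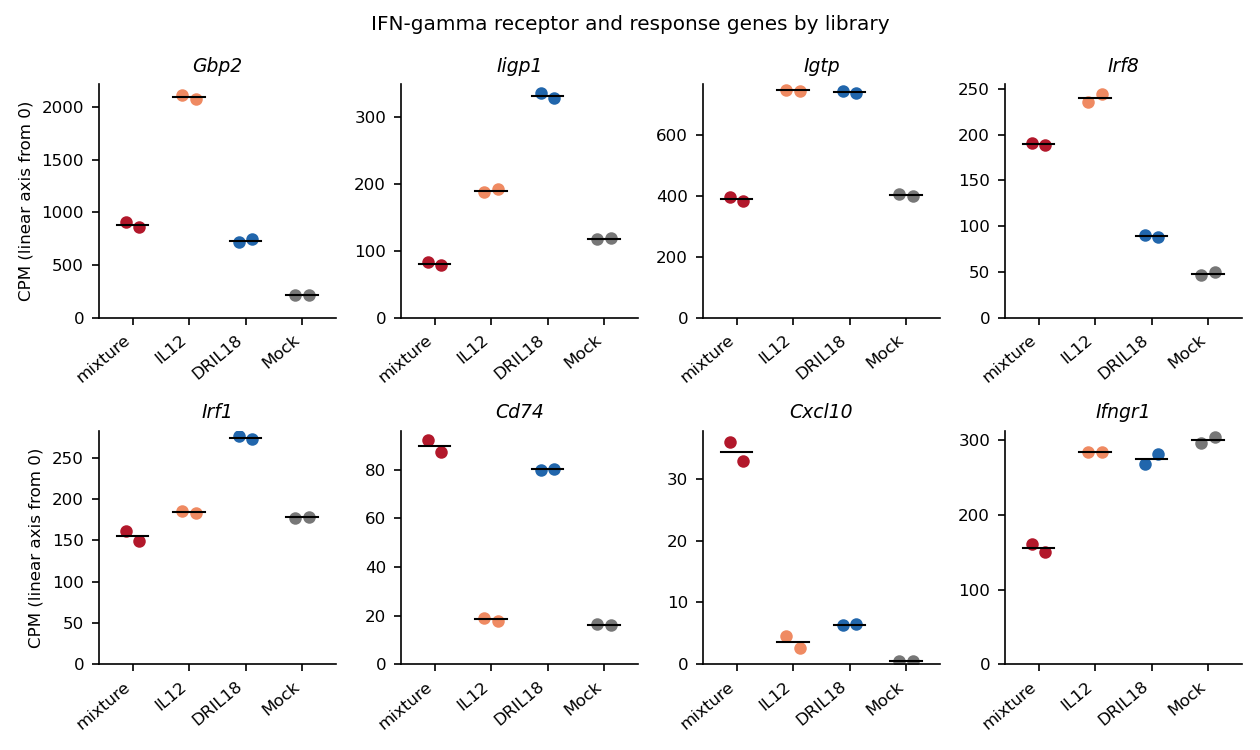
Levels of 8 genes of the IFN-γ receptor and response in each library of the mixture, IL12, DRIL18 and Mock groups (x axis), in CPM on linear axes from 0, with points for libraries and a bar for the mean of each pair. Gbp2, Iigp1, Igtp and Irf1 are lower in the mixture than in IL12 and higher in DRIL18 than in Mock, while Cd74 and Cxcl10 are higher in both comparisons.

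Type I interferon-stimulated genes, which share many regulators with the IFN-γ response, gave 6 higher and 23 lower of 42 tested, with a median of -0.37. Members of the Ifi200 family of DNA sensors and Ifi44 were among the largest changes. Ifi206 had 18.8 and 19.6 CPM in the mixture libraries, against 158 and 156 CPM in the IL12 libraries (log2 fold change -3.03 ± 0.05 SE, adjusted p = 3.78e-29), with 121 and 129 CPM with DRIL18 and 146 and 149 CPM in Mock. Ifi208 had 2.60 and 2.94 CPM with the mixture and 23.1 and 22.3 CPM with IL12 (-3.04 ± 0.10), Ifi209 had 41.7 and 42.3 CPM with the mixture and 304 and 289 CPM with IL12 (-2.82 ± 0.04) and Ifi44 had 0.613 and 0.593 CPM with the mixture and 4.93 and 3.995 CPM with IL12 (-2.88 ± 0.36). Both mixture libraries lay under those of IL12 for each. Slfn1, a Schlafen gene linked to T cell quiescence, fell by 1.59 on the log2 scale. Irf7 and Irf9, transcription factors of this response, were lower as well (-0.91 ± 0.11 and -0.65 ± 0.05). Mx2 passed as higher at 0.526 and 0.563 against 0.0980 and 0.0315 CPM (3.01 ± 0.72), and Ifih1, an RNA sensor, rose with 13.4 and 12.4 CPM with the mixture and 5.75 and 6.64 CPM with IL12 (1.06 ± 0.11).

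An interferon-stimulated response element was searched as GAAA, any 2 bases and GAAA, on both strands. It stood in 12 of 29 matched members of the IFN-γ list and in 15 of 31 of the type I list, against 3.3% of matched tested genes. Genes at least 2-fold higher held it in 3.58% and those at least 2-fold lower in 5.79%. Shown with the motif in capitals are Gbp2 (chr3:142620579-142620638, plus strand), Igtp (chr11:58199497-58199555, plus strand) and Ifi206 (chr1:173491324-173491383, minus strand), which were lower in the mixture. These genes were chosen because they hold the motif, and a match is not a measured binding site.
Gbp2: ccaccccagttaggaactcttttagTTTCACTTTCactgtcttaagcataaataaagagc
Igtp: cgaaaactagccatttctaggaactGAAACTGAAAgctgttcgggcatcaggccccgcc
Ifi206: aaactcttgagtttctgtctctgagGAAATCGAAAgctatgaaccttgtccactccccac

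The list of cytotoxic granule genes split. Of 22 tested, 9 were higher and 10 lower in the mixture. The list also holds protease inhibitor genes such as Serpinb9b, which was among those higher. Gzma, a granzyme, had 113 and 110.1 CPM in the mixture libraries, against 936 and 927 CPM in the IL12 libraries, an 8.36-fold lower level (log2 fold change -3.06 ± 0.04 SE, adjusted p = 1.45e-32), with 182 and 184 CPM with DRIL18 and 333 and 327 CPM in Mock. Gzmk had 4.06 and 4.68 CPM with the mixture and 24.5 and 23.9 CPM with IL12 (-2.47 ± 0.12). Gzmb, the granzyme most used to mark killer cells, fell less, with 1319.9 and 1379 CPM with the mixture and 2288 and 1905 CPM with IL12 (-0.64 ± 0.05, adjusted p = 4.93e-12). Perforin, Prf1, which opens the target membrane, rose slightly, with 34.9 and 36.4 CPM with the mixture and 24.7 and 28.8 CPM with IL12 (0.41 ± 0.08, adjusted p = 2.86e-05). Gzmc had 31.2 and 27.6 CPM with the mixture and 5.46 and 6.61 CPM with IL12 (2.28 ± 0.11). Nkg7 and Ctsw, a granule membrane protein and a cathepsin of killer cells, fell by 1.27 and 1.44 on the log2 scale.

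Serpinb9, a protease inhibitor that blocks granzyme B, had 141 and 140.0 CPM in the mixture libraries, against 50.9 and 48.6 CPM in the IL12 libraries (a 2.82-fold higher level, adjusted p = 7.71e-22), and its level did not pass between DRIL18 and Mock (0.01 ± 0.06 SE, adjusted p = 0.897; difference 1.48 ± 0.07 SE, adjusted p = 2.08e-16). Serpinb6b had 38.7 and 38.6 CPM with the mixture and 12.4 and 12.8 CPM with IL12 (1.61 ± 0.08). Serpinb9b and Gzmg also passed as higher at low counts, Serpinb9b with a count ratio of 45.9 (95% interval from counting alone 7.87 to 1849) on 50 counts over both mixture libraries and 1 over both IL12 libraries, and Gzmg with a ratio of 13.2 (95% interval from counting alone 4.21 to 66.3) on 43 and 3 counts.

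Among 35 tested transcription factors of effector and exhausted T cells, 14 were higher and 14 lower. The T-box factors moved apart: Tbx21 (T-bet) had 228 and 226 CPM in the mixture libraries, against 181 and 178 CPM in the IL12 libraries (0.34 ± 0.04, adjusted p = 5.64e-09), and Eomes had 1.26 and 1.25 CPM in the mixture libraries, against 15.2 and 11.3 CPM in the IL12 libraries, a 10.5-fold lower level (log2 fold change -3.40 ± 0.18 SE, adjusted p = 9.09e-17). Eomes was also lower with DRIL18 alone, at 4.44 and 5.63 CPM with DRIL18 and 13.7 and 13.2 CPM in Mock (difference -1.98 ± 0.24 SE, adjusted p = 5.83e-08). Hlx, a partner of T-bet in helper cells, had 1.26 and 1.13 CPM with the mixture and 6.21 and 5.03 CPM with IL12 (-2.23 ± 0.25), and Egr1, an immediate early factor, had 11.3 and 13.3 CPM with the mixture and 54.0 and 50.8 CPM with IL12 (-2.09 ± 0.08). Nr4a1 (Nur77), another immediate early factor, moved the opposite way with 17.3 and 17.4 CPM with the mixture and 2.81 and 2.61 CPM with IL12 (2.67 ± 0.15). Batf, Batf3 and Zeb2 rose by 1.43 ± 0.06, 1.94 ± 0.07 and 1.57 ± 0.11 on the log2 scale.

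Inhibitory receptors, listed together with ectoenzyme genes such as Nt5e, were mostly lower. Of 18 tested, 4 were higher and 12 lower, with a median of -0.91. Lag3 had 32.5 and 30.1 CPM in the mixture libraries, against 156 and 168 CPM in the IL12 libraries (log2 fold change -2.37 ± 0.05 SE, adjusted p = 1.64e-25), while DRIL18 and Mock cells did not differ past the test (0.07 ± 0.05 SE, adjusted p = 0.344; difference -2.45 ± 0.08 SE, adjusted p = 1.04e-21). The ectoenzymes that make adenosine fell: Nt5e (CD73) had 2.31 and 2.73 CPM with the mixture and 42.6 and 45.9 CPM with IL12 (-4.13 ± 0.11), and Entpd1 (CD39) had 12.8 and 14.8 CPM with the mixture and 46.7 and 51.7 CPM with IL12 (-1.84 ± 0.08). Pdcd1, the gene of PD-1, had 24.9 and 22.03 CPM with the mixture and 40.9 and 49.8 CPM with IL12 (-0.95 ± 0.08, adjusted p = 1.63e-11), and Ctla4 had 152 and 153 CPM with the mixture and 289.9 and 300.0 CPM with IL12 (-0.95 ± 0.04). Cd200r1 was lower at low levels (-1.85 ± 0.26). Tigit, Havcr2 (TIM-3) and Btla were higher, by 1.32 ± 0.08, 0.47 ± 0.09 and 0.67 ± 0.05 on the log2 scale.

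Costimulatory receptors moved in both directions: of 21 tested, 8 rose and 12 fell. Several receptors of the TNF receptor family rose. Tnfrsf25 (DR3) had 63.6 and 67.4 CPM in the mixture libraries, against 9.31 and 11.0 CPM in the IL12 libraries (log2 fold change 2.68 ± 0.09 SE, adjusted p = 5.68e-22), and Tnfrsf4 (OX40) had 124 and 133 CPM in the mixture libraries, against 20.1 and 21.4 CPM in the IL12 libraries (log2 fold change 2.63 ± 0.06 SE, adjusted p = 3.77e-25). Tnfrsf9 (4-1BB) had 326 and 335 CPM with the mixture and 88.7 and 104 CPM with IL12 (1.78 ± 0.05) and Tnfrsf8 (CD30) 157 and 169 CPM with the mixture and 36.0 and 34.5 CPM with IL12 (2.21 ± 0.05). Cd40 and its ligand gene Cd40lg also rose, at 0.847 and 1.30 against 0.131 and 0.220 CPM and 1.61 and 2.08 against 0.523 and 0.157 CPM (2.58 ± 0.54 and 2.43 ± 0.41). Cd28, Icos and Cd27, which are further costimulatory receptors, were lower: Cd28 had 334 and 331 CPM with the mixture and 715 and 706 CPM with IL12 (-1.09 ± 0.04), Icos -0.84 ± 0.04 and Cd27 -1.25 ± 0.04 on the log2 scale.

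Genes of quiescent, naive and memory T cells mostly fell. Of 24 tested, 3 were higher and 17 lower, with a median of -0.76. Klf2, a factor that keeps T cells resting and recirculating, had 7.36 and 7.06 CPM in the mixture libraries, against 31.8 and 29.5 CPM in the IL12 libraries (log2 fold change -2.09 ± 0.08 SE, adjusted p = 6.23e-20). Pik3ip1, an inhibitor of PI3 kinase, had 5.69 and 5.31 CPM with the mixture and 23.8 and 21.1 CPM with IL12 (-2.03 ± 0.09), Slamf6 26.0 and 23.0 CPM with the mixture and 95.4 and 91.9 CPM with IL12 (-1.93 ± 0.06) and Ly6c2 37.7 and 41.5 CPM with the mixture and 139 and 132 CPM with IL12 (-1.77 ± 0.05). Foxo1, which drives Klf2, fell by 1.12 on the log2 scale. Tcf7, the gene of TCF1 and a memory factor, was one of the 3 that rose, with 493 and 508 CPM with the mixture and 439 and 418 CPM with IL12 (0.22 ± 0.04, adjusted p = 3.87e-06), and both groups lay below the 916 and 949.6 CPM of DRIL18 and 1031 and 1013 CPM of Mock.

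Receptors for survival cytokines and for migration mostly fell too. Of 19 tested cytokine receptors of survival and growth, 3 rose and 13 fell. Il7r had 93.7 and 93.6 CPM with the mixture and 227 and 219 CPM with IL12 (-1.25 ± 0.04), Il10ra 17.6 and 17.0 CPM with the mixture and 78.0 and 85.6 CPM with IL12 (-2.24 ± 0.06) and Il6st (gp130) 193 and 182 CPM with the mixture and 487 and 497 CPM with IL12 (-1.39 ± 0.04). Csf2rb passed as higher at a low level (1.77 ± 0.55), but not without IL12 replicate 2 (1.16, adjusted p = 0.132) or mixture replicate 2 (1.09, adjusted p = 0.233). Il2ra (CD25) rose with 2506 and 2655 CPM with the mixture and 2309.6 and 2258 CPM with IL12 (0.18 ± 0.04, adjusted p = 0.00026). Of 31 tested chemokine receptors, integrins and homing genes, 7 rose and 18 fell. Ccr2 had 32.6 and 30.0 CPM with the mixture and 118 and 117 CPM with IL12 (-1.91 ± 0.06), Cxcr6 222 and 204 CPM with the mixture and 512 and 515 CPM with IL12 (-1.27 ± 0.04) and Cxcr3, the receptor for CXCL10, 83.5 and 77.8 CPM with the mixture and 194 and 185 CPM with IL12 (-1.23 ± 0.04). Itga1 and Itgax fell at low levels (-2.50 ± 0.34 and -1.87 ± 0.40), and Ccr3 rose at low levels (3.29 ± 0.71).

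T cell receptor genes were modestly lower: of 23 tested, 3 rose and 18 fell, with a median of -0.40. Fyn, a proximal kinase, had 215 and 211 CPM with the mixture and 443 and 441 CPM with IL12 (-1.05 ± 0.04), and Cd3g and Cd3d, subunits of the receptor complex, fell by 0.86 and 0.68 on the log2 scale. Ubash3a, a phosphatase that restrains the receptor, fell by 0.79. Cd8a did not pass (0.07 ± 0.03, adjusted p = 0.101), but it passed as higher without library scaling (0.10, adjusted p = 0.0132).

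Survival genes moved in both directions, with 12 higher and 9 lower of 27 tested. Bcl2l1, which encodes the anti-apoptotic protein BCL-XL, had 216 and 220.2 CPM in the mixture libraries, against 62.0 and 57.1 CPM in the IL12 libraries (log2 fold change 1.87 ± 0.05 SE, adjusted p = 3.09e-24; difference from the effect without IL12 1.59 ± 0.07 SE, adjusted p = 7.54e-18). Bcl2l11, which encodes its pro-apoptotic opponent BIM, had 60.9 and 59.7 CPM with the mixture and 156 and 162 CPM with IL12 (-1.40 ± 0.05). Tnfrsf10b, a TRAIL receptor, had 48.1 and 53.5 CPM with the mixture and 18.1 and 14.5 CPM with IL12 (1.64 ± 0.08). The anti-apoptotic genes Mcl1 and Bcl2 were lower (-0.66 ± 0.04 and -0.55 ± 0.04).

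Cell cycle genes were slightly lower, and several p53 targets were higher. Of 42 tested cell cycle and replication genes, 8 rose and 23 fell, with a median of -0.11 and with 0 higher and 0 lower by 2-fold. Mki67, a marker of dividing cells, had 835 and 861 CPM in the mixture libraries, against 1105 and 1176 CPM in the IL12 libraries (-0.43 ± 0.04, adjusted p = 1.33e-10). E2f2 and Ccnb2 fell by 0.84 and 0.60 on the log2 scale, while Cdk6 and Cdc25a rose by 0.61 ± 0.05 and 0.59 ± 0.05. Of 17 tested cell cycle inhibitors and p53 targets, 9 rose and 6 fell. Cdkn1a, the gene of p21, had 480.2 and 476 CPM in the mixture libraries, against 159 and 129 CPM in the IL12 libraries (log2 fold change 1.73 ± 0.06 SE, adjusted p = 2.42e-21), and Plk2 had 27.6 and 22.8 CPM with the mixture and 4.48 and 4.47 CPM with IL12 (2.49 ± 0.14). Phlda3 and Mdm2, further p53 targets, rose by 1.48 ± 0.09 and 0.90 ± 0.04, and Eda2r rose at a low level (3.52 ± 0.51). Cdkn1b, the gene of p27, which holds resting cells out of cycle, fell by 0.89.

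Stress genes of the ER and of amino acid supply mostly rose. Of 20 tested genes of the unfolded protein response, which raises ER folding capacity when secretory load is high, 17 were higher and 0 lower, with a median of 0.65. The effect of DRIL18 was larger with IL12 than without for 17 of them past the test of the difference and smaller for 0, against 14.6% and 17.1% of all tested genes. Ern1, the gene of the ER stress sensor IRE1-alpha, had 78.3 and 82.8 CPM in the mixture libraries, against 15.0 and 14.7 CPM in the IL12 libraries (log2 fold change 2.44 ± 0.07 SE, adjusted p = 3.32e-23). Eif2ak3 (PERK), another sensor, had 112 and 108 CPM with the mixture and 42.5 and 46.1 CPM with IL12 (1.31 ± 0.05). Hspa5, the gene of the main ER chaperone BiP, had 1340.3 and 1294 CPM in the mixture libraries, against 852 and 799 CPM in the IL12 libraries (log2 fold change 0.67 ± 0.04 SE, adjusted p = 2.72e-16), with 775 and 802 CPM with DRIL18 and 671 and 675 CPM in Mock. Dnajb9, Manf and Pdia6, which help or follow folding in the ER, rose by 1.12 ± 0.10, 0.99 ± 0.04 and 0.93 ± 0.04 on the log2 scale. Calr had 1593 and 1647 CPM with the mixture and 1062 and 961 CPM with IL12 (0.68 ± 0.04).

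Of 30 tested genes of the ATF4 response, which supplies amino acids and glutathione precursors under stress, 25 rose and 1 fell, with a median of 0.60. The difference between the DRIL18 effects passed as higher for 24 and lower for 1. Atf4 had 362 and 383 CPM with the mixture and 219.8 and 204 CPM with IL12 (0.81 ± 0.04), and Asns, asparagine synthetase, had 118 and 119.8 CPM in the mixture libraries, against 38.2 and 39.4 CPM in the IL12 libraries (log2 fold change 1.62 ± 0.06 SE, adjusted p = 3.28e-21; difference 0.99 ± 0.08 SE, adjusted p = 3.96e-11). Slc7a3, a carrier of arginine and lysine, had 30.8 and 26.2 CPM with the mixture and 3.56 and 3.18 CPM with IL12 (3.08 ± 0.13). Slc7a11, the cystine carrier, had 2.28 and 2.61 CPM with the mixture and 0.131 and 0.126 CPM with IL12 (4.21 ± 0.50), and Cth, which makes cysteine, had 5.75 and 5.16 CPM with the mixture and 0.0653 and 0.220 CPM with IL12 (5.21 ± 0.42). Chac1, which breaks down glutathione, had 5.49 and 6.05 CPM with the mixture and 0.849 and 1.07 CPM with IL12 (2.58 ± 0.26). Cbs had a count ratio of 23.9 (95% interval from counting alone 3.92 to 978) on 26 counts over both mixture libraries and 1 over both IL12 libraries. Ddit3, the gene of the pro-apoptotic factor CHOP, had 11.7 and 10.1 CPM with the mixture and 11.1 and 10.4 CPM with IL12 and did not pass (0.02 ± 0.11, adjusted p = 0.901).

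**Figure D4:**
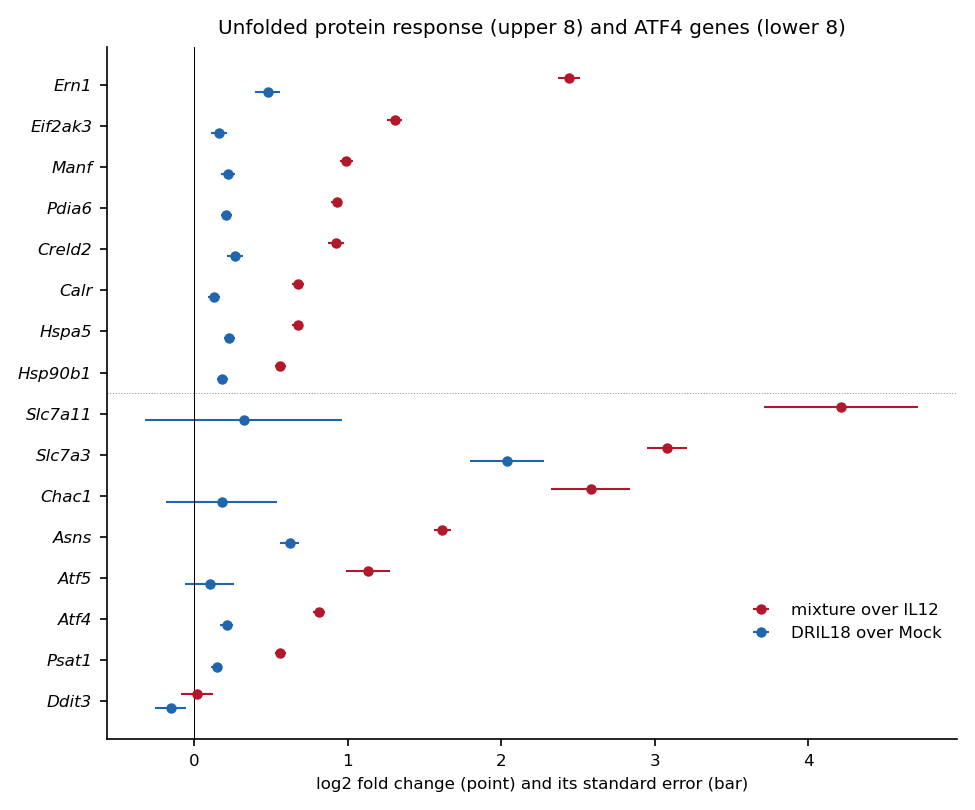
Log2 fold changes (x axis, points) with their standard errors (bars) for 8 genes of the unfolded protein response (upper) and 8 of the ATF4 response (lower, y axis), in red for mixture over IL12 and in blue for DRIL18 over Mock. The red points lie right of the blue ones for every gene drawn, and Ddit3 is near 0.

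Promoter sequences of 3 genes of each response, chosen because they hold its textbook motif, are shown with the motif in capitals. The ER stress response element, CCAAT, any 9 bases and CCACG on either strand, stood in 8 of 18 matched members of the unfolded protein response list and in 0.183% of matched tested genes. Matched genes at least 2-fold higher held it in 0.163% and those at least 2-fold lower in 0%. Hspa5 lies at chr2:34772000-34772068, plus strand, Pdia6 at chr12:17266466-17266534, plus strand and Creld2, whose level was 94.3 and 94.7 against 50.7 and 48.9 CPM, at chr15:88819495-88819563, plus strand.
Hspa5: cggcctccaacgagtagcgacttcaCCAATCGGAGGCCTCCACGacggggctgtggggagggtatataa
Pdia6: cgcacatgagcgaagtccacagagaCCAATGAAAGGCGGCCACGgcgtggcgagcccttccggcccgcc
Creld2: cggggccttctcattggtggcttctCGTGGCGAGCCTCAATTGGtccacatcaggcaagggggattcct
The element bound by C/EBP and ATF4 factors, TGATGNAA on either strand, stood in 8 of 25 matched members of the ATF4 list and in 2.49% of matched tested genes. Matched genes at least 2-fold higher held this element in 3.41% and those at least 2-fold lower in 2.98%. Asns lies at chr6:7693210-7693257, minus strand, Slc7a11 at chr3:50443628-50443685, minus strand, where it stands in 2 copies, and Chac1 at chr2:119351024-119351081, plus strand.
Asns: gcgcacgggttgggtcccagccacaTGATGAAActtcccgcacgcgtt
Slc7a11: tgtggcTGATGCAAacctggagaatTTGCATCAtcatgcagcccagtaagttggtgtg
Chac1: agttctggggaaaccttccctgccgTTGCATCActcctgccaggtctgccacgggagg

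Many genes of protein synthesis and sugar use rose as well. Of 22 tested MYC and ribosome biogenesis genes, 17 rose and 4 fell, with a median of 0.44. Srm and Odc1, polyamine enzymes and MYC targets, had 286 and 276 CPM with the mixture and 125 and 118 CPM with IL12 (1.21 ± 0.04) and 818 and 807 CPM with the mixture and 471 and 425 CPM with IL12 (0.86 ± 0.04). Npm1, a nucleolar protein, had 2513 and 2596 CPM with the mixture and 1498 and 1348 CPM with IL12 (0.84 ± 0.04), and Mxd1, a MYC antagonist, rose by 0.90 ± 0.07 while Mycn fell by 1.04 on the log2 scale. Of 16 tested heat shock genes and chaperones 11 rose and 1 fell, and the mitochondrial pair Hspd1 and Hspe1 rose by 1.06 ± 0.04 and 0.89 ± 0.05. Of 21 tested genes of glycolysis and of glucose and lactate transport, 11 rose and 4 fell. Hk2, which traps glucose in the cell, had 731 and 714 CPM in the mixture libraries, against 205 and 229 CPM in the IL12 libraries (log2 fold change 1.74 ± 0.04 SE, adjusted p = 3.33e-25), while Aldoc, an aldolase, fell with 14.3 and 14.0 CPM with the mixture and 22.1 and 33.4 CPM with IL12 (-0.97 ± 0.13). Pfkl, a rate-controlling enzyme, and Tpi1 rose by 0.61 ± 0.05 and 0.43 ± 0.05. The count of lower glycolysis genes was 7 without IL12 replicate 1 and 2 without IL12 replicate 2.

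Other metabolic lists changed less. Hif1a, the oxygen-regulated factor, had 785 and 815 CPM with the mixture and 452 and 405 CPM with IL12 (0.90 ± 0.04), while its wider hypoxia list had 5 higher and 4 lower of 15 tested. Of 32 tested genes of cholesterol and fatty acid synthesis 6 rose and 17 fell. Elovl6, which lengthens fatty acids, fell with 35.0 and 33.4 CPM with the mixture and 127 and 127 CPM with IL12 (-1.89 ± 0.05), and Scd1, which desaturates them, rose with 81.1 and 85.4 CPM with the mixture and 42.3 and 44.6 CPM with IL12 (0.94 ± 0.07). Oxidative phosphorylation had 6 higher and 9 lower of 30 tested, and the tricarboxylic acid cycle 12 and 4 of 22, with 0 members of both lists together changed by 2-fold. Without IL12 replicate 2, 8 hypoxia genes and 3 oxidative phosphorylation genes were higher, and 2 genes of the tricarboxylic acid cycle lower.

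The 10 largest increases of named genes at a mean of 5 CPM or more in the mixture were Il22, Il6, Fam107a, Il13, Gcnt3, Acox2, Pdzk1ip1, Gpr83, Gstm1 and Itgb5. Most were at or near 0 counts in IL12 cells. Gcnt3, a glycosyltransferase of mucin-type glycans, had 72.6 and 73.6 CPM with the mixture and 0.0327 and 0.0315 CPM with IL12, with 4968 counts over both mixture libraries and 2 over both IL12 libraries. Fam107a had 16.3 and 18.2 CPM with the mixture and 0 and 0 CPM with IL12 (at least 359-fold higher) and Acox2, a peroxisomal oxidase, 7.12 and 7.86 CPM with the mixture and 0 and 0 CPM with IL12 (at least 156-fold higher). Pdzk1ip1, a small membrane protein, had 77.8 and 78.1 CPM in the mixture libraries, against 0.229 and 0.0629 CPM in the IL12 libraries (log2 fold change 9.04 ± 0.17 SE, adjusted p = 4.87e-27). Gstm1, a glutathione S-transferase, had 198 and 217 CPM in the mixture libraries, against 0.719 and 0.786 CPM in the IL12 libraries, or 274-fold more (log2 fold change 8.10 ± 0.11 SE, adjusted p = 2.25e-31), and lay at 1.10 and 0.914 CPM with DRIL18 and 1.10 and 0.625 CPM in Mock. Itgb5, an integrin chain, had 44.9 and 49.9 CPM with the mixture and 0.359 and 0.0629 CPM with IL12 (7.80 ± 0.20).

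In all, 9 genes reached 5 CPM in the mixture with 3 counts or fewer over both IL12 libraries, namely Il22, Il6, Il13, Fam107a, Acox2, Gcnt3, Gpr83, Mylk2 and Gprasp2. Of the changed genes, 0 showed the reverse state. The last 3 had 447, 780 and 663 counts over both mixture libraries, and 1, 3 and 3 over both IL12 libraries.

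The 10 largest decreases of named genes at a mean of 5 CPM or more in IL12 cells were those of Ret, Timp2, Matn2, Nt5e, Slc9a2, Cass4, Aqp3, Ifi213, Lgals3 and Serpinb5. Ret, a receptor tyrosine kinase, had 0.0584 and 0.0890 CPM in the mixture libraries, against 11.5 and 14.7 CPM in the IL12 libraries (log2 fold change -7.40 ± 0.31 SE, adjusted p = 4.67e-19), on 5 and 818 counts. Timp2, an inhibitor of matrix proteases, had 0.292 and 0.474 CPM with the mixture and 15.3 and 17.8 CPM with IL12 (-5.42 ± 0.21), and Lgals3, the gene of galectin-3, had 9.05 and 7.80 CPM in the mixture libraries, against 92.4 and 97.6 CPM in the IL12 libraries (log2 fold change -3.49 ± 0.07 SE, adjusted p = 1.05e-26). Ifi213, of the Ifi200 family, had 3.42 and 3.29 CPM with the mixture and 38.9 and 40.5 CPM with IL12 (-3.56 ± 0.09). Matn2, Slc9a2, Cass4, Aqp3 and Serpinb5 fell by 4.54, 3.96, 3.92, 3.88 and 3.46 on the log2 scale.

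By amount of RNA, the largest gains were those of Ifng, Furin, Hsp90ab1, Npm1, Gapdh, Ncl, Calr and Ldha. Furin, a protease that matures secreted proteins, had 3682 and 3898 CPM with the mixture and 2263 and 2346 CPM with IL12 (0.72 ± 0.04), well above the 100.4 and 103 CPM of DRIL18 cells. Hsp90ab1, Gapdh, Ncl and Ldha rose by 0.50 ± 0.03, 0.31 ± 0.03, 0.58 ± 0.04 and 0.32 ± 0.04 on the log2 scale. The largest losses were those of mt-Co1, Tmsb4x, Gbp2, Eef1a1, Ptprc, Actb, Gzma and Samhd1. Ptprc (CD45) had 1430.1 and 1386 CPM with the mixture and 2546 and 2556 CPM with IL12 (-0.86 ± 0.03) and Samhd1, which limits nucleotide pools, 376 and 357 CPM with the mixture and 1129.5 and 1156 CPM with IL12 (-1.64 ± 0.04). Tmsb4x, mt-Co1, Actb and Eef1a1 fell by 0.73, 0.34, 0.22 and 0.19.

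To see whether DRIL18 acted alike with and without IL12, its effects were compared in the same fit. They share no library. The column mark bis stands on DRIL18 replicate 2 and on neither Mock library, so it is uneven in both comparisons. DRIL18 alone changed 3832 genes against Mock (24.3%), and its effect differed between both settings for 4993 genes (31.6%), 2296 higher (14.6%) and 2697 lower (17.1%) with IL12. Of the genes changed in both settings 2876 moved the same way and 297 in opposite directions (1.88%). Among the 2876, the effect was larger with IL12 for 1524 past the test of the difference and smaller for 42. Across 9756 genes at a mean of 5 CPM or more the effects had a Pearson r of 0.588, given as a description, since genes of 1 set of libraries are not independent.

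**Figure D5:**
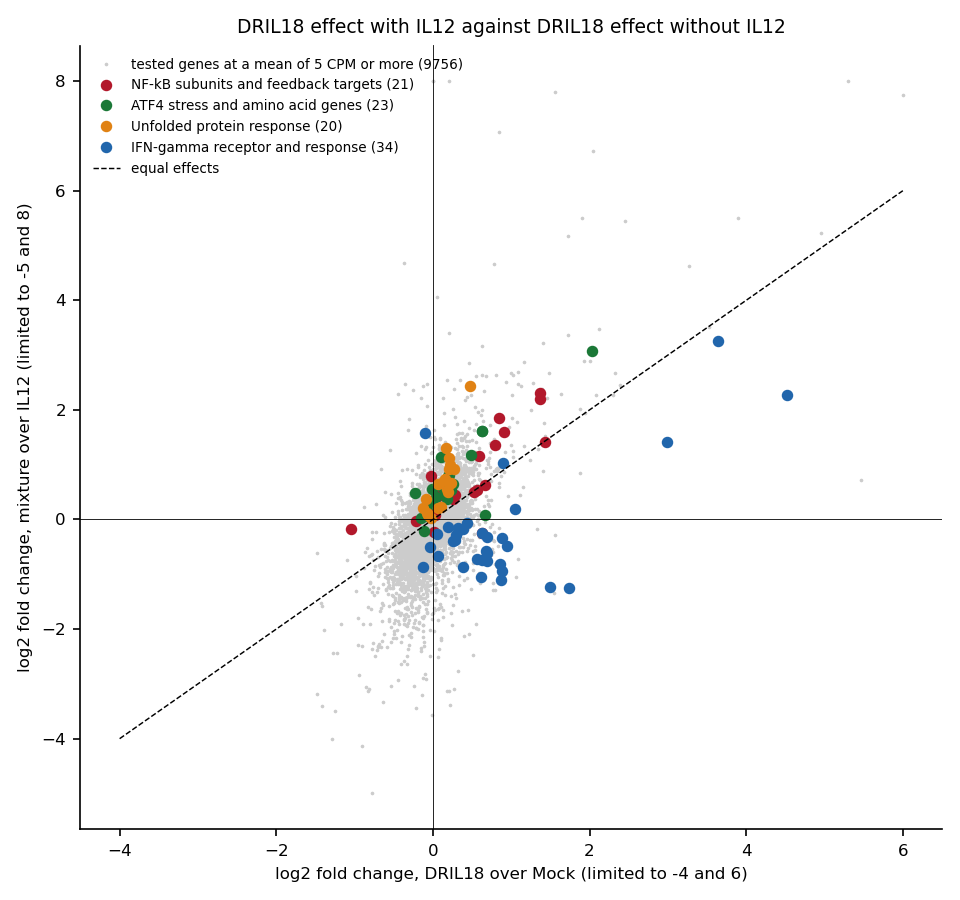
Each grey point is 1 of 9756 genes, with the log2 fold change of DRIL18 over Mock (x axis) and of mixture over IL12 (y axis), and coloured points are members of 4 lists. The dashed line marks equal effects, and values are limited to -4 and 6 on x and to -5 and 8 on y. NF-kB, ATF4 and unfolded protein response members lie mostly above 0 on the y axis, and IFN-γ response members lie mostly to the right and below 0.

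The genes with the largest differences were chosen from those that also changed between mixture and IL12. Those higher were Gpr83, Gstm1, Itgb5, Kctd14, Plagl1 and Timp3. Gstm1 had a difference of 7.89 ± 0.40 SE, adjusted p = 2.54e-16. Kctd14 had 24.7 and 28.2 CPM with the mixture and 0.163 and 0.220 CPM with IL12, with 1.41 and 1.09 CPM with DRIL18 and 0.623 and 0.773 CPM in Mock (difference 6.23 ± 0.44 SE, adjusted p = 5.92e-13). Itgb5 had 2.11 and 1.65 CPM with DRIL18 and 0.679 and 0.595 CPM in Mock (difference 6.25 ± 0.48 SE, adjusted p = 5.47e-12). The differences of Gpr83, Plagl1 and Timp3 (8.53, 5.84 and 5.42) rest on counts near 0 in DRIL18 and Mock, and none passed without Mock replicate 1. They were then 3.37, 1.49 and 1.76 (adjusted p = 0.959, 0.889 and 0.908).

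Those lower were Rufy4, Ret, Timp2, Matn2, Slc9a2 and Art2b. Art2b, an ADP-ribosyltransferase of the T cell surface, had 11.3 and 11.1 CPM in the mixture libraries, against 119 and 115 CPM in the IL12 libraries, with 42.3 and 45.8 CPM with DRIL18 and 38.04 and 37.6 CPM in Mock (difference -3.61 ± 0.09 SE, adjusted p = 1.82e-24). Both mixture libraries were thus the lowest of the 4 groups. Timp2 had 2.25 and 2.27 CPM with DRIL18 and 3.99 and 3.78 CPM in Mock (difference -4.64 ± 0.30 SE, adjusted p = 7.64e-14), and Ret 0.173 and 0.177 CPM with DRIL18 and 1.13 and 1.07 CPM in Mock (difference -4.77 ± 0.76 SE, adjusted p = 7.82e-06). Rufy4 (-5.65) was near 0 counts in DRIL18 and Mock and did not pass without DRIL18 replicate 1 (-1.29, adjusted p = 1). Slc9a2 (-3.80) did not pass without DRIL18 replicate 2 (-2.83, adjusted p = 0.201). Matn2 had a difference of -4.12 ± 0.67 SE, adjusted p = 1.19e-05.

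Markers of several other cell types moved with the groups. The B cell markers with the largest changes were Spib, at 9.61 and 10.1 against 1.31 and 1.42 CPM (2.85 ± 0.20), Igkc, at 16.5 and 17.1 against 6.17 and 5.95 CPM (1.47 ± 0.12), and Jchain and Blnk, which did not pass under several alternatives. Of 12 natural killer markers 4 were tested, and 2 fell, Eomes, which T cells also make, and Fcgr3, at 0 counts with the mixture and 7 with IL12. Fcgr3 passed in only 9 of 18 settings. It did not pass with limma-voom (adjusted p = 0.066), with the mark bis as a covariate (adjusted p = 0.436), or without IL12 replicate 1 or either mixture library. The summed level of the 12 natural killer markers was 2.31 to 2.34 CPM with the mixture and 13.1 to 16.8 CPM with IL12, most of it Eomes. Of 9 tested gamma-delta T cell markers 0 rose and 6 fell, with a summed level of 50.3 to 51.1 CPM with the mixture and 68.8 to 77.6 CPM with IL12. Zbtb16, Trgv2, Cd163l1 and Trdc fell by 3.46, 1.83, 1.31 and 0.89 on the log2 scale. Tcrg-C4 lay slightly higher in the mixture, at a mean of 19.6 against 17.3 CPM, and did not pass. The number of gamma-delta markers called higher moved when either IL12 library was left out. Of 12 CD4 and regulatory T cell markers 6 rose and 3 fell, with 3 higher without IL12 replicate 2. Foxp3, the regulatory T cell factor, fell with 0.0292 and 0.178 CPM with the mixture and 1.21 and 1.76 CPM with IL12 (-3.80 ± 0.53), and Izumo1r rose with 14.1 and 15.6 CPM with the mixture and 2.52 and 2.80 CPM with IL12 (2.48 ± 0.14). Of 22 myeloid and dendritic markers 9 were tested, 4 higher and 1 lower. Their summed level was 24.2 to 25.9 CPM with the mixture and 30.6 to 33.2 CPM with IL12. Xcr1 set the direction of that sum, at a mean of 7.99 CPM with the mixture and 20.6 CPM with IL12. Its fall was larger than that of the sum. Spi1, Zbtb46 and Mpeg1 rose (2.23 ± 0.66, 1.76 ± 0.39 and 1.30 ± 0.23) and Xcr1 fell by 1.37, while Spi1 did not pass without mixture replicate 1 (1.94, adjusted p = 0.0643). Of 12 neutrophil markers 0 passed the filter on low counts, and their summed level was 0.380 to 0.415 CPM with the mixture and 0.261 to 0.378 CPM with IL12. Of 5 tested erythroid and platelet markers 0 passed in edgeR, where 1 had an unadjusted p under 0.05, and 0 passed in DESeq2 and in limma-voom, while 1 passed without IL12 replicate 1. Their summed level was 3.91 to 4.06 CPM with the mixture and 1.96 to 4.88 CPM with IL12. The part of any of these cells in the results above was not tested.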

How the data were processed

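The counts are whole-number gene counts as deposited by the authors, for 5 groups of 2 libraries each. STAR 2.7.9, featureCounts, edgeR, limma and the build mm39 are named, without their roles, per the submitters' processing notes. The kit keeps strand per the labels' protocols, but the strand setting and annotation release were not found in the labels, so overlapping and antisense genes may share reads. The deposited log2 CPM values, made by the authors, were used only in an alternative.

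Genes passing edgeR's expression filter (15777 of 55359) were fitted in edgeR 4.0.16 under R 4.3.3 with all 10 libraries, 5 group means and TMM scaling, and tested by two-sided quasi-likelihood F tests with Benjamini-Hochberg adjustment at 0.05. Standard errors are the log2 fold change divided by the square root of F. All adjusted p-values are from this fit unless another is named, with limma 3.58.1 and DESeq2 1.42.0 as alternatives. A group at 0 was set to 3 counts for a fold bound, and intervals at 95% cover counting error only. The test was checked on simulated data. Library totals of 31281944 to 35062545 counts, with a common coefficient of variation of 3.39%, let small changes pass. Symbols were matched for 52083 identifiers by Ensembl identifier, and 3276 had none. RefSeq promoters on GRCm38.p6 gave sequences, with a match for 10365 tested genes.

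Named genes were the 10 largest changes each way, the 4 largest per list, the 6 largest differences of effects each way, the 8 largest CPM gains and losses, and 20 fixed genes. Other genes named were chosen after their values were seen. The comparison and all lists were chosen with earlier results of these data known. Alternatives changed the scaling, filter, test, libraries fitted, replicate block and a column mark, bis, whose meaning is not given. Both mixture libraries carry it and of the IL12 libraries only replicate 2. Of the DRIL18 libraries only replicate 2 carries it, and neither Mock library does. Same-numbered IL12 and mixture libraries did not deviate together across genes (r = -0.0113). The labels do not say whether the numbers pair libraries. This r cannot decide it, since genes with few counts, which are imprecise, enter it. Results for a few genes are not reported here.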

Additional observations from a re-analysis of the deposited data

Results flagged for a closer look

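Each value here is a difference between the effect of DRIL18 with IL12 and its effect without IL12 that passed its own test in edgeR. That test was passed by 4993 genes. The log2 differences were 8.53 for Gpr83, 7.89 for Gstm1, 6.25 for Itgb5, 6.23 for Kctd14, 5.84 for Plagl1 and 5.42 for Timp3, all higher with IL12. They were -5.65 for Rufy4, -4.77 for Ret, -4.64 for Timp2, -4.12 for Matn2, -3.80 for Slc9a2 and -3.61 for Art2b, all lower with IL12. Without Mock replicate 1 the differences were 3.37 for Gpr83, 1.49 for Plagl1 and 1.76 for Timp3, and without DRIL18 replicate 1 that of Rufy4 was -1.29. That of Slc9a2 was -2.83 without DRIL18 replicate 2. None of these 5 passed there.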

How the results depend on the processing

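The 8232 changed genes numbered 7108 (DESeq2) to 8259 (no scaling) under other settings and 7304 to 8237 with 1 library left out. Genes changed by 2-fold numbered 1519 to 1904, and 1732 to 1864 with 1 library left out. Genes past the test of the difference of effects numbered 3978 to 5063, and 4121 to 4976 with 1 library left out. List members changed numbered 527 to 574, and 526 to 564 with 1 library left out. With the replicate number as a block, 8194 genes changed, 8151 of them shared, although it is not known whether the numbers pair the libraries. With the column mark bis as a covariate 7793 changed, 7556 of them shared. Without scaling, 53.23% of changed genes were higher, against 49.5%. Ddit3, not called, changed sign without IL12 replicate 2 (-0.03) and without mixture replicate 1 (-0.10), within a range of -0.10 to 0.12. Rufy4 did not pass with limma on the deposited log2 CPM (-1.32, adjusted p = 0.199), and its difference missed the threshold with limma-voom (-3.07, adjusted p = 0.0727). Without scaling, 11 oxidative phosphorylation genes were higher. DESeq2 called 7 B cell markers and 3 CD4 and regulatory markers higher. With 2 libraries a group, leaving 1 out assumes the lone library varies like the other groups, and genes with few counts are imprecise.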
